A study of Homo sapiens with 24 samples.

Results

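Keratin genes were taken from the deposited gene tables as every row whose symbol is KRT followed by digits with at most 1 further letter, which gave 55 genes of 26346. Keratin-associated proteins and 8 pseudogene names were left out by that rule, which uses names and no measured value. The 55 were 28 type I keratins, 26 type II keratins and KRT222, a keratin-like gene of neither type. Their polyadenylated RNA was read in 24 RNA-seq libraries from 3 established human cancer cell lines, in 12 groups of 2 libraries that came from separate infections, selections and cultures. All cells had been exposed to lentivirus for 48 h and then held under selection. VCaP, a prostate cancer line whose own ERG gene is driven by the TMPRSS2 promoter through a fusion, carried the hairpin constructs shCt (control), shERG or shARID1A and spent 8 days in puromycin. LNCaP, a prostate cancer line without that fusion, carried an empty vector, ERG or ETV1 and spent 4 days in blasticidin. SW13, an adrenal carcinoma line that makes little BRG1 of its own, carried GFP, BRG1 or the ATPase mutant BRG1-K785R, each beside an empty vector or ERG, and spent 2 days in both drugs. BRG1 is the ATPase of the BAF chromatin remodelling complex, ARID1A is one of its DNA-binding subunits, and ERG and ETV1 are transcription factors of the ETS family. The study asked how ERG and BAF act together. The hairpin sequences, the promoters of the constructs and the share of infected cells are not stated in the sources, and each group was a selected population rather than a single clone.

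Keratins are the intermediate filament proteins of epithelial cells. A filament needs an acidic type I and a basic type II keratin in equal amounts, and the pairs mark the kind of epithelium. KRT8 and KRT18 form the filaments of simple, gland-lining epithelia, KRT5 and KRT14 those of basal cells, KRT4 and KRT13 those of moist stratified linings, and KRT1 and KRT10 those of the upper epidermis. KRT6A, KRT6B, KRT6C, KRT16 and KRT17 appear in activated or wounded epidermis, KRT75 belongs to the companion layer around the hair shaft, and KRT81 and KRT86 are hair keratins. In the prostate, luminal cells make KRT8 and KRT18 and basal cells make KRT5, KRT14 and KRT15. The genes lie in a pair of clusters. All 55 matched the RefSeq gene table, in which 26 type II genes and KRT18, the only type I gene there, were on chromosome 12 and the other 27 type I genes and KRT222 were on chromosome 17.

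Sequence matters here because some keratins are near copies and a 75-base read cannot always tell them apart. The first 75 coding bases of KRT6A (transcript KRT6A-201), printed to show this, were identical in KRT6B and KRT6C:
KRT6A: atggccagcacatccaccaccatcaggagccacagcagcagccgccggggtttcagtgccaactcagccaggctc
Of all 75-base windows of the transcript, 26.2% in KRT6A, 34.9% in KRT6B, 42.9% in KRT6C, 36.6% in KRT81 and 32.6% in KRT86 occurred exactly in another gene's transcript. The share was 21.4% in KRT18 and 15.7% in KRT8, and no window of KRT10, KRT19, KRT80, KRT15 or KRT4 was shared. Counts of KRT6A, KRT6B, KRT6C, KRT81 and KRT86 are therefore uncertain as to the copy, since how shared reads were counted is not given. KRT8 and KRT18 lie beside each other and overlap by 135 exon bases on opposite strands, and KRT7, KRT13 and KRT75 overlap antisense RNAs, so without a stated strand setting those reads cannot be told apart. Bases upstream of KRT75 and KRT10 (RefSeq, GRCh38.p14, minus strand) are shown. KRT75 was chosen because it rose with ERG in LNCaP and fell with ERG in SW13 beside BRG1. KRT10 was chosen because it had the highest keratin level in SW13 control cells. The KRT10 stretch, chr17:40822615-40822864, is the 250 bases next to the RefSeq start, with a TATAAA match in capitals. The KRT75 stretch, chr12:52434526-52434621, is only the far 96 bases of its window. The 154 bases nearest the RefSeq start are left out because GENCODE begins the gene that far upstream.
KRT75: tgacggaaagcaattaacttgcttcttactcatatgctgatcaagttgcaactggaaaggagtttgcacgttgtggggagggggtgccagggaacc
KRT10: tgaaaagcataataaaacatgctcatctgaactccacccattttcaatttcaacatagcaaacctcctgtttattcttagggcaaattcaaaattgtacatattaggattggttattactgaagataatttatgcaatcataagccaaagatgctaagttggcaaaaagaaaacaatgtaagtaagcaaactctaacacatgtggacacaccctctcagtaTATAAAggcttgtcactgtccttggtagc
The ETS core motifs AGGAAG and CGGAAG and the AP-1 motif TGANTCA were searched on both strands in windows from 250 bases before to 50 after the RefSeq start. Either ETS core stood in 14 of the 34 keratin windows in the table (41.2%) and in 47.2% of all 27305 windows, and the AP-1 motif stood in 0 keratin windows and in 7.76% of all. Neither KRT75 nor KRT10 held any of these 3 motifs in its window, which says only that the letters were not there.

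Libraries held 19754265 to 41996681 counted reads. ERG stood at 330 and 354 CPM (reads scaled to a common library total) in VCaP shCt, 81.0 and 87.9 in shERG, 996 and 958 in LNCaP ERG and 1474 to 2148 in SW13 with ERG. LNCaP Empty itself held ETV1 at 568 and 591 CPM. ARID1A was at 251 and 249.8 CPM in VCaP shCt and 71.9 and 75.3 in shARID1A. SMARCA4, the gene of BRG1, was at 25.5 to 35.4 CPM in SW13 with GFP and 1417 to 2264 with BRG1 or the mutant, which gene counts cannot tell apart. Summed prostate markers (9 genes) were 6033 to 15480 CPM in VCaP and LNCaP and 26.6 to 49.6 CPM in SW13. Of 8 adrenal cortex markers, HSD3B2, CYP11B1 and MC2R had no read in any SW13 library, and only CYP21A2 passed 1 CPM there, at 11.5 to 21.8 CPM, below its 34.5 to 62.2 CPM in the prostate lines, so the markers did not set SW13 apart as adrenal. Every adjusted p comes from the quasi-likelihood F test of edgeR, two-sided and adjusted by Benjamini-Hochberg over all genes tested, unless DESeq2 is named. A gene is called at an adjusted p under 0.05, and changes are log2 values ± an approximate standard error (SE). Groups at or under 3 reads are given by their reads, with a bound or a ratio and its 95% counting interval. In bulk RNA, fewer cells of a type and less RNA per cell cannot be told apart.

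Of the 55 keratins, 20 reached a mean of 1 CPM in at least 1 of the 12 groups and 7 reached 10 CPM. Levels were compared between genes only as RPKM, which divides by gene length as well as by library total. In VCaP shCt, KRT8 stood at 382 and 373 RPKM, KRT18 at 230.2 and 229 and KRT19, the small type I keratin of ductal epithelia, at 151 and 141. LNCaP Empty had 161 and 164 RPKM of KRT8, 147 and 149 of KRT18 and 14.1 and 10.9 of KRT19. These 3 simple keratins made up 94.9 to 96.4% of all keratin RPKM in VCaP and 91.3 to 93.9% in LNCaP, whatever the construct. In SW13 with GFP and the empty vector KRT8 was at 0.393 and 0.398 RPKM and KRT18 at 1.07 and 1.20, while KRT10 was at 29.7 and 26.5 RPKM and made up 94.8 and 93.4% of all keratin RPKM.

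**Figure D1:**
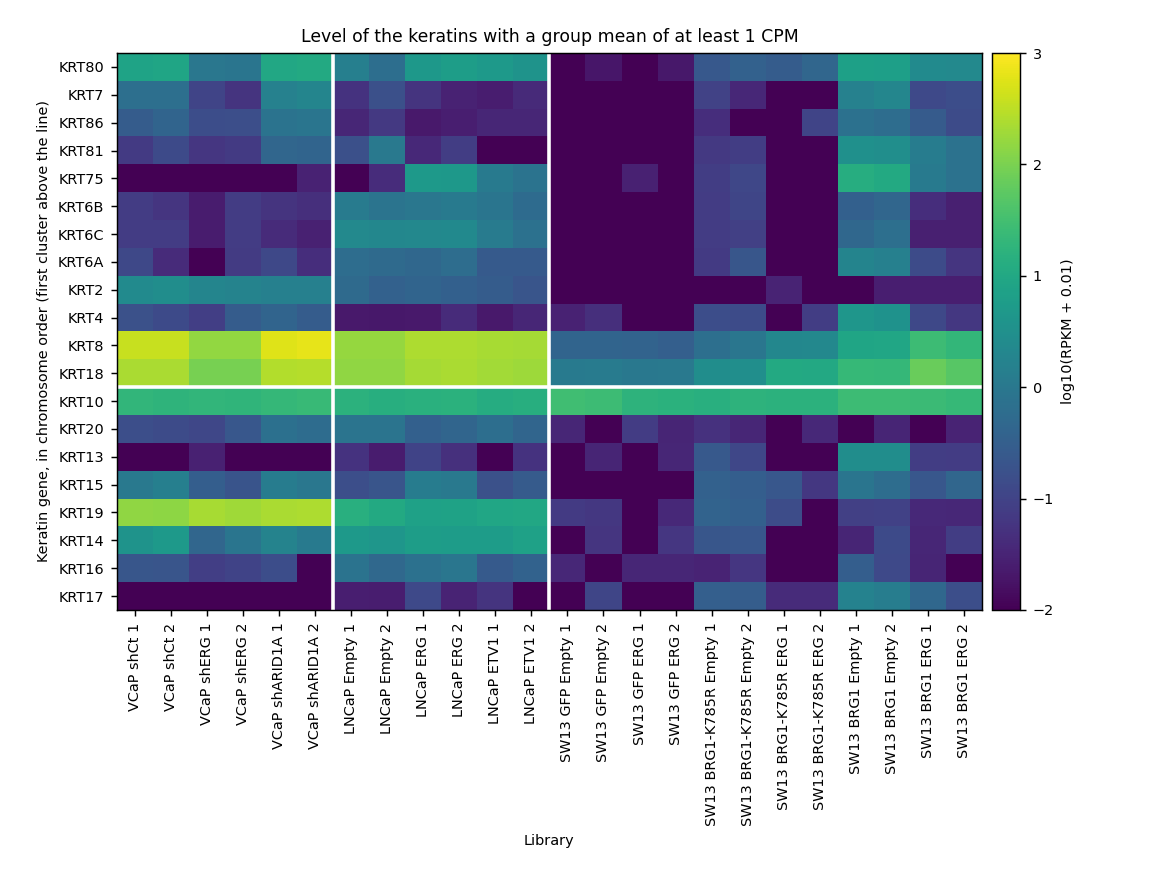
Heat map of the 20 keratins that reached a group mean of 1 CPM (rows, in chromosome order, 12 on chromosome 12 above the line and 8 on chromosome 17 below it) in the 24 libraries (columns), as log10(RPKM + 0.01). KRT8, KRT18 and, in VCaP, KRT19 are bright in the prostate lines, and KRT10 is the bright row in SW13 with GFP.

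VCaP shCt and SW13 with GFP were each compared with LNCaP Empty, and not with each other. Between VCaP shCt and LNCaP Empty 81.4% of 17718 genes were called (39.3% higher, 42.1% lower), and of 17 keratins tested 10 were higher in VCaP and 6 were lower. The 6 lower keratins, KRT6A, KRT6B, KRT6C, KRT16, KRT20 and KRT36, passed the filter on low counts only through LNCaP Empty. KRT7, KRT15, KRT73 and KRT86, all higher, passed it only through VCaP shCt. For these genes the direction was largely set by the filter, so the counts are a description. KRT19 was 12.3-fold higher in VCaP (log2 3.62 ± 0.09, adjusted p = 4e-13), KRT80, a type II keratin of stratified linings, was 8.58-fold higher (3.10 ± 0.22) and KRT8 was 2.44-fold higher (1.29 ± 0.04). KRT18 was 1.63-fold higher (0.70 ± 0.05), and KRT15, KRT7 and KRT2 were also higher, by 2.90, 2.78 and 2.70. In the other direction KRT6C, KRT6B and KRT6A were higher in LNCaP Empty, by log2 changes for VCaP of -4.89 ± 0.34, -3.96 ± 0.45 and -2.90 ± 0.49. KRT6C read 5.19 and 4.67 CPM in LNCaP Empty and had 8 reads over both VCaP shCt libraries. The KRT80 value was 3.77 without LNCaP Empty replicate 1, KRT6A was -4.06 and -2.24 without VCaP shCt replicate 1 or 2, and KRT7 was 2.17 and 3.91 without LNCaP Empty replicate 1 or 2.

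Against LNCaP Empty, SW13 with GFP and the empty vector was lower in 15 of 17 keratins tested and higher in KRT10, with 83.1% of all genes called (38.7% higher, 44.5% lower). Of the 15, KRT6A, KRT6B, KRT6C, KRT16, KRT20 and KRT36 passed the filter on low counts only through LNCaP Empty. For them a lower value in SW13 was largely set by the filter. KRT7, KRT15 and KRT86 passed only through VCaP shCt, and the count is a description. KRT8 was 409-fold lower (-8.68 ± 0.08), KRT19 was 210-fold lower (-7.71 ± 0.30) and KRT18 was 130-fold lower (-7.02 ± 0.08). KRT6A, KRT6B, KRT6C and KRT2 had 0 reads in SW13 with GFP, which put KRT6C at least 39.2-fold, KRT6B at least 18.2-fold, KRT6A at least 11.1-fold and KRT2 at least 8.33-fold lower. KRT14 had 2 reads against 612, a ratio of 180 (49.5 to 1487). KRT80 had 1 read against 322, a ratio of 189 (33.7 to 7492). KRT10 was 1.87-fold higher (0.90 ± 0.08, adjusted p = 1.1e-07). Line, vector, drug and days of selection all differ between these 3 groups and cannot be told apart.

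With less ERG in VCaP, the luminal pair KRT8 and KRT18 fell together while KRT19 rose. KRT8 was at 866 and 845 CPM in shCt and at 344 and 345 in shERG. KRT18 was at 353 and 352 CPM in shCt and at 144 and 142 in shERG. KRT19 was at 222 and 208 CPM in shCt and at 324 and 281 in shERG. The groups did not overlap in any of the 3 genes. KRT8 fell 2.82-fold (-1.50 ± 0.05, adjusted p = 2.8e-16), KRT18 fell 2.80-fold (-1.49 ± 0.05, adjusted p = 3.7e-17) and KRT19 rose 1.24-fold (0.31 ± 0.06, adjusted p = 3.8e-05). In all, 10 of 15 keratins tested fell, 1 rose and 4 were not called, with a median log2 change of -1.42, while 66.7% of 16791 genes were called, 29.3% higher and 37.4% lower, around a median of -0.05. KRT73, which fell, passed the filter on low counts only through the shCt libraries.

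Among the stratified keratins the fall with shERG was largest in KRT80, from 31.4 and 33.3 CPM to 3.70 and 3.33 CPM. Its log2 change was -3.38 ± 0.10 (adjusted p = 1.2e-17), a 10.4-fold fall, and both shERG libraries lay far below both shCt libraries. KRT14, the basal partner of KRT5, went from 6.07 and 7.92 CPM to 0.714 and 1.43 CPM (-2.92 ± 0.26). KRT15, a type I keratin of basal cells, went from 1.96 and 2.60 to 0.551 and 0.348 CPM (-2.49 ± 0.34). KRT7, a type II keratin of ducts and bladder lining, went from 1.14 and 1.15 CPM to 0.162 and 0.0774 CPM (-3.34 ± 0.48). KRT2, an epidermal keratin, fell less, from 6.07 and 6.84 to 4.57 and 4.07 CPM (-0.76 ± 0.15). None of these 5 genes overlapped between the groups. KRT20, KRT4, KRT72 and KRT81, all under 1 CPM in both groups, were not called, and KRT10 was called at -0.19 ± 0.07 although its CPM values overlapped (41.9 and 38.9 against 41.2 and 39.1).

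**Figure D2:**
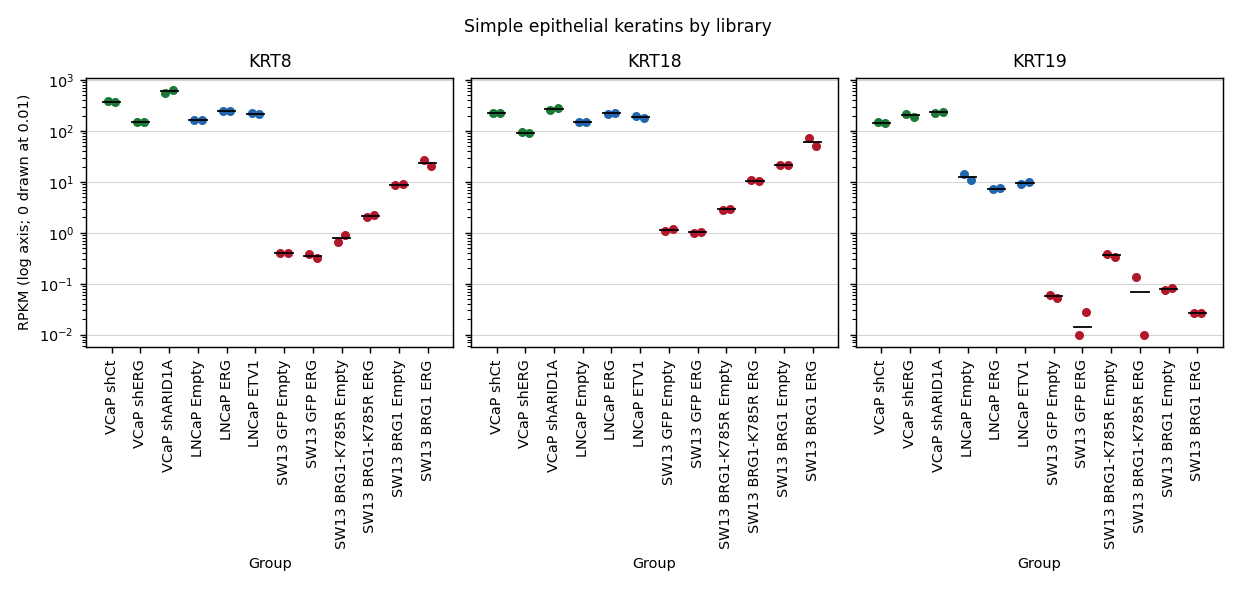
RPKM of KRT8, KRT18 and KRT19 in each library (points, log axis, 0 drawn at 0.01; bars mark group means) for the 12 groups. KRT8 and KRT18 fall in VCaP with shERG and rise in LNCaP with ERG, KRT19 moves the other way in both lines, and in SW13 KRT8 and KRT18 rise with BRG1 and again with ERG beside it.

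ARID1A knockdown in VCaP left KRT8 and KRT19 higher than in shCt. KRT8 was at 1285 and 1448 CPM with shARID1A against 866 and 845 CPM, a 1.52-fold rise (0.61 ± 0.05, adjusted p = 6.7e-10). KRT19 was at 338 and 349.6 CPM against 222 and 208, a 1.53-fold rise (0.61 ± 0.06, adjusted p = 2e-09). KRT18 rose only 1.13-fold, from 353 and 352 CPM to 405 and 433 (0.18 ± 0.04, adjusted p = 0.0013). Of the 15 keratins tested 9 rose, 2 fell and 4 were not called, against 66.1% of all genes called (32.9% higher, 33.2% lower). KRT20, KRT4 and KRT81 passed the filter on low counts only through the shARID1A libraries. For these genes a rise with shARID1A was largely set by the filter, so the count is a description. The other rises were KRT20, a keratin of intestinal and umbrella cells, from 0.274 and 0.229 to 1.22 and 1.03 CPM (2.09 ± 0.46), KRT7, from 1.14 and 1.15 CPM to 2.69 and 3.18 (1.29 ± 0.27), and KRT86, from 0.587 and 0.841 to 1.68 and 1.80 (1.21 ± 0.33), besides KRT81 under 1 CPM, KRT80 (0.26 ± 0.07) and KRT10 (0.18 ± 0.07). KRT14 fell to 2.79 and 1.80 CPM (-1.65 ± 0.23) and KRT2 fell to 3.6 and 3.56 CPM (-0.92 ± 0.16), and neither overlapped shCt. Beside these rises, 8 of 12 mesenchymal genes tested also rose with shARID1A and 0 fell, and their summed level (15 genes, all with a read in 3 of these 4 libraries, and VIM alone without one in the other) was 750 and 738 CPM against 225 in both shCt libraries. TGM2 made up most of that sum, at a mean of 457 CPM. Its part in the keratin result was not tested.

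Set directly against shERG, shARID1A was higher in 13 of 15 keratins and lower in 0, with 73.0% of all genes called (36.8% higher, 36.2% lower). The 13 include KRT20, KRT4 and KRT81, which were tested only because of their reads with shARID1A. KRT2 and KRT72 were not called. KRT8 differed 4.30-fold (2.10 ± 0.05), KRT18 3.17-fold (1.67 ± 0.05) and KRT19 1.23-fold (0.30 ± 0.05). KRT7 differed by 4.63 ± 0.40, KRT80 by 3.64 ± 0.10, KRT86 by 2.63 ± 0.38, KRT15 by 2.25 ± 0.34 and KRT20 by 2.10 ± 0.44. KRT14 differed by 1.27 ± 0.31, which was lost without shARID1A replicate 1 (0.85, adjusted p = 0.064). Both knockdowns were compared with the same shCt libraries, so their changes are given side by side only. KRT8, KRT18, KRT7, KRT80 and KRT86 were below shCt with shERG and above it with shARID1A, KRT14 and KRT2 were below it with both, and KRT19 was above it with both.

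Adding ERG to LNCaP moved the 3 main simple keratins in the reverse direction. KRT8 was at 365 and 372 CPM with the empty vector and at 554 and 557 with ERG. KRT18 was at 226 and 229 CPM and at 330.3 and 349. KRT19 was at 20.8 and 16.0 CPM and at 10.5 and 11.1. No group overlapped the other in these genes. KRT8 rose 1.52-fold (0.60 ± 0.04, adjusted p = 2.6e-05), KRT18 rose 1.5-fold (0.59 ± 0.05, adjusted p = 8.5e-05) and KRT19 fell 1.69-fold (-0.75 ± 0.12, adjusted p = 0.0023). Of 17 keratins tested 5 rose, 3 fell and 9 were not called, with 29.7% of 16993 genes called (15.4% higher, 14.3% lower).

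KRT75 gave the widest change in LNCaP. It had 0 and 3 reads with the empty vector and 404 and 288 reads with ERG (10.4 and 9.81 CPM), a ratio of 277 (94.3 to 1345), and in VCaP no library had more than 1 read of it. KRT80 rose from 5.49 and 2.48 CPM to 17.9 and 23.9 CPM (2.40 ± 0.29, adjusted p = 0.00043, and 3.08 without LNCaP Empty replicate 1). KRT15 rose from 0.277 and 0.357 CPM to 2.3 and 1.94 CPM (2.74 ± 0.34, adjusted p = 0.00049). In these 3 genes both ERG libraries lay above both control libraries. KRT20 read 1.51 and 1.48 CPM with the empty vector and 0.594 and 0.75 with ERG (-1.15 ± 0.30, adjusted p = 0.021). That call was lost without LNCaP Empty replicate 1 (adjusted p = 0.095), LNCaP Empty replicate 2 (adjusted p = 0.083) or LNCaP ERG replicate 1 (adjusted p = 0.12), and with DESeq2 (adjusted p = 0.054). KRT81 passed the filter on low counts only through LNCaP Empty, so a lower value with ERG was largely set by the filter. KRT81 had 12 and 84 reads in the 2 control libraries and 2 and 4 with ERG (-3.65 ± 1.02, adjusted p = 0.030). It was lost without LNCaP Empty replicate 2 (-1.71, adjusted p = 0.26), LNCaP ERG replicate 1 (-3.05, adjusted p = 0.16) or LNCaP ERG replicate 2 (-4.39, adjusted p = 0.076). The control libraries were also uneven in TGM2 (2.02 and 18.8 CPM) and COL1A1 (88.0 and 20.9 CPM), and the part of this in the KRT81 value was not tested. KRT6A, KRT6B, KRT6C, KRT2, KRT10, KRT14, KRT16, KRT5 and KRT36 were not called.

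ETV1 in LNCaP gave a like set of values for most of these genes, against the same 2 control libraries. KRT8 was at 505 and 480.1 CPM (0.46 ± 0.04, adjusted p = 0.00014) and KRT18 was at 305 and 281 CPM (0.40 ± 0.05, adjusted p = 0.00078). KRT19 was at 13.4 and 15 CPM, below both controls, and was not called (-0.34 ± 0.12, adjusted p = 0.072), although without LNCaP Empty replicate 2 it was (-0.51, adjusted p = 0.024). KRT75 had 91 and 67 reads (2.28 and 1.71 CPM), a ratio of 54.3 (18.3 to 266), and KRT80 was at 18.5 and 14.4 CPM (2.09 ± 0.29, and 2.77 without LNCaP Empty replicate 1). KRT6C fell from 5.19 and 4.67 CPM to 2.75 and 1.68 (-1.11 ± 0.22, adjusted p = 0.0058). KRT6A was at 0.626 and 0.611 CPM against 1.49 and 1.31 (-1.13 ± 0.28, adjusted p = 0.016), a call lost when any one of these 4 libraries was left out (adjusted p = 0.055 to 0.11). KRT14 was at 9.36 and 11.9 CPM against 8.19 and 6.83 (0.54 ± 0.14, adjusted p = 0.019), and its call was lost without LNCaP Empty replicate 2 (0.42, adjusted p = 0.14) or LNCaP ETV1 replicate 2 (0.36, adjusted p = 0.14). KRT81 had 0 reads with ETV1 and was at least 15.2-fold lower, or at least 3.99-fold without LNCaP Empty replicate 2, which held 84 of the control reads. KRT81 was tested only because of its reads in LNCaP Empty. The call was lost without LNCaP ETV1 replicate 1 (adjusted p = 0.054) or replicate 2 (adjusted p = 0.062). In all 5 of 17 keratins rose, 4 fell and 8 were not called, against 26.1% of all genes called (13.2% higher, 12.9% lower). Without LNCaP ETV1 replicate 2 only 5 keratins were called.

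The direct test of ETV1 against ERG in LNCaP found 6 keratins lower with ETV1, 0 higher and 11 not called, where 14.4% of all genes were called (6.5% higher, 7.87% lower). KRT15 was 5.29-fold lower, at 0.3 and 0.484 CPM against 2.3 and 1.94 (-2.40 ± 0.33, adjusted p = 0.0019), and KRT75 was 4.98-fold lower (-2.32 ± 0.23, adjusted p = 0.00033). KRT6C was 2.24-fold lower (-1.16 ± 0.22, adjusted p = 0.0091), and KRT36, a hair keratin under 1 CPM, was the fourth. KRT16 (-1.41 ± 0.36, adjusted p = 0.032) and KRT6A (-1.03 ± 0.28, adjusted p = 0.042) were lost when any one of the 4 libraries was left out, so that 4 keratins were called without LNCaP ETV1 replicate 1 and 3 without any other of the 4. KRT8 (-0.15 ± 0.04, adjusted p = 0.057), KRT18 (-0.18 ± 0.05, adjusted p = 0.05002) and KRT19 (0.42 ± 0.13, adjusted p = 0.059) lay at the threshold, and each was called under some alternatives. KRT80 was not called (-0.31 ± 0.25, adjusted p = 0.45).

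BRG1 raised the simple pair and most other keratins tested in SW13. KRT8 was at 0.891 and 0.901 CPM with GFP and at 19.4 and 20.4 with BRG1. KRT18 was at 1.65 and 1.84 CPM and at 33.6 and 32.6. KRT80 had 1 read over both GFP libraries and stood at 27.6 and 25.5 CPM with BRG1. The groups lay far apart in all 3 genes. KRT8 rose 20.2-fold (4.33 ± 0.19, adjusted p = 4.6e-19), KRT18 rose 17.2-fold (4.10 ± 0.17, adjusted p = 7.4e-20) and KRT80 rose by a ratio of 1274 (228 to 50363). KRT75 had 0 reads with GFP and 721 and 584 reads with BRG1 (27.1 and 23.5 CPM), so it was at least 201-fold higher.

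Keratins of stratified, follicle and hair types appeared beside the simple pair. KRT81 had 0 reads with GFP and was at 6.28 and 5.51 CPM with BRG1, at least 46.9-fold higher. KRT6A, at 4.48 and 3.70 CPM, was at least 32.5-fold higher, KRT7, at 2.71 and 3.30 CPM, at least 23.9-fold, KRT86 at least 11.1-fold, KRT15 at least 10.8-fold and KRT6C at least 10.1-fold. KRT4 went from 3 reads to 8.99 and 7.72 CPM, a ratio of 134 (45.5 to 652), and its partner KRT13 went from 1 read to 4.85 and 4.78 CPM, a ratio of 231 (41.1 to 9166). In none of these genes did the groups overlap. KRT17 rose by 4.58 ± 0.59, to 2.56 and 2.05 CPM. KRT5, the basal type II keratin, had 0 reads with GFP and 24 and 21 with BRG1, while KRT14, its partner, had 2 and 6 reads in all and was not tested. Of 17 keratins tested 15 rose, 1 fell and 1 was not called, but 8 of them (KRT4, KRT5, KRT6A, KRT6B, KRT6C, KRT7, KRT13 and KRT86) passed the filter on low counts only through the BRG1 Empty libraries. For those 8 a difference from BRG1 Empty was largely set by the filter, so every count of keratins against that group is given as a description. The background was 62.4% of 17018 genes called (32.2% higher, 30.2% lower). The keratin not called was KRT19, with 4 reads against 6. KRT10 was called lower (-0.21 ± 0.08, adjusted p = 0.031) although its values overlapped (57.4 and 56.5 against 63.6 and 56.7 CPM).

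**Figure D3:**
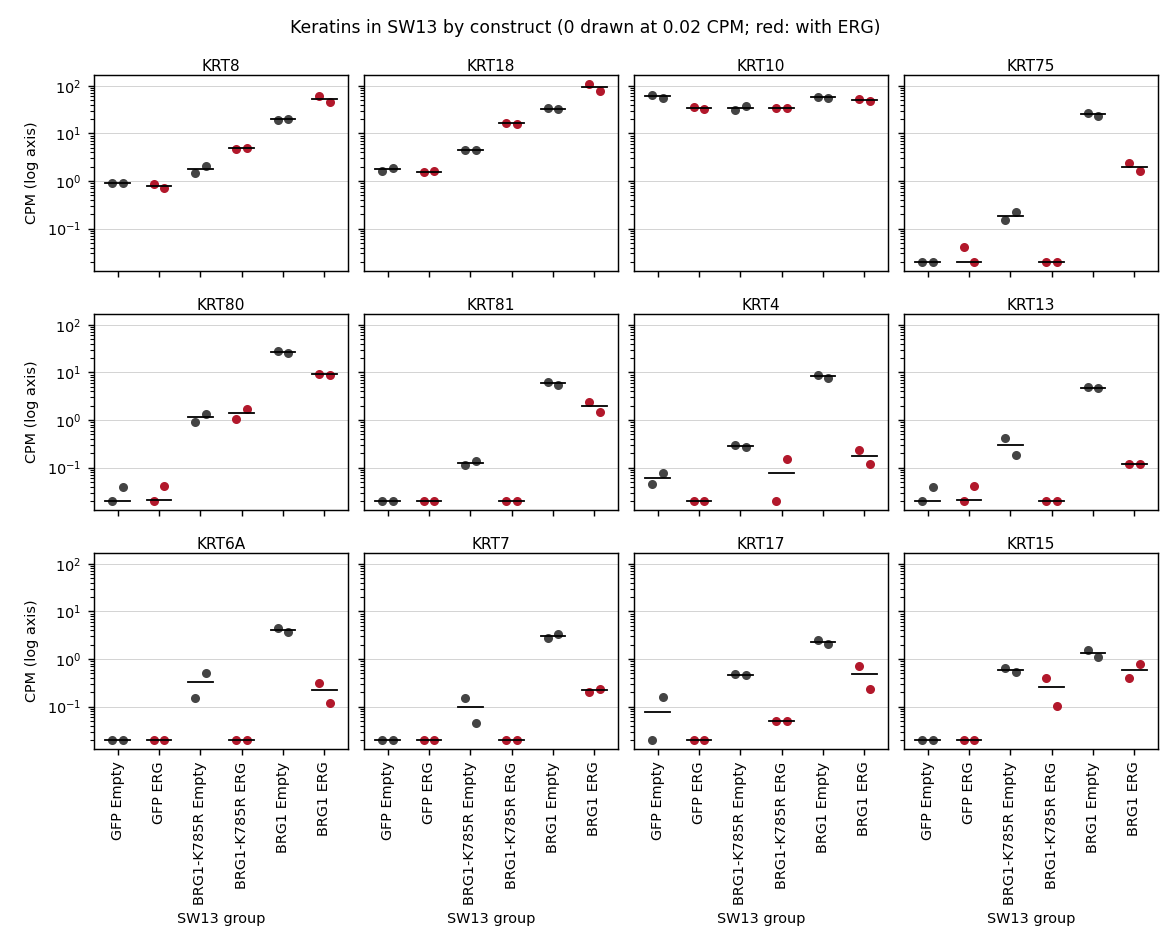
CPM of 12 keratins in the 6 SW13 groups (points are libraries, log axis, 0 drawn at 0.02 CPM; red marks groups with ERG). KRT75, KRT80, KRT81, KRT4, KRT13, KRT6A and KRT7 are high with BRG1 and the empty vector and lower with BRG1 and ERG, while KRT8 and KRT18 are highest with BRG1 and ERG.

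The ATPase mutant gave a smaller rise than BRG1 in most of these genes. With BRG1-K785R KRT8 was at 1.5 and 2.08 CPM, above both GFP libraries (1.06 ± 0.29, adjusted p = 0.0020), and KRT18 was at 4.40 and 4.53 CPM (1.43 ± 0.22, adjusted p = 1.9e-06). KRT80 was at 0.902 and 1.36 CPM, a ratio of 53.2 (9.15 to 2140) to GFP. KRT19 had 26 reads against 4 with GFP (2.68 ± 0.76, adjusted p = 0.0030), and DESeq2 left it just short of the threshold (adjusted p = 0.050). KRT19 passed the filter on low counts only through the mutant's Empty libraries, so this rise was largely set by the filter. KRT10 fell from 63.6 and 56.7 CPM to 30.3 and 36.9 (-0.76 ± 0.09, adjusted p = 5.9e-09). Counts against GFP were 15 higher, 1 lower and 1 not called of 17, where 58.7% of all genes were called (32.3% higher, 26.4% lower). Most of those calls rested on 5 to 29 reads against 0 to 4, and 7 keratins were called when only the 4 libraries compared were fitted.

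Directly against the mutant, BRG1 was higher in 16 of 17 keratins and lower in 1, with 66.7% of all genes called (32.6% higher, 34.1% lower). The 16 include the 8 that were tested only because of their reads in BRG1 Empty. KRT8 was 9.69-fold higher (3.28 ± 0.17), KRT18 6.39-fold (2.68 ± 0.14) and KRT80 20.5-fold (4.36 ± 0.19). KRT75 had 4 and 5 reads with the mutant and was 115-fold higher with BRG1 (6.85 ± 0.28), and KRT81 was higher by 5.31 ± 0.41. KRT4 was at 0.301 and 0.272 CPM with the mutant (4.63 ± 0.33), KRT13 at 0.414 and 0.181 (3.74 ± 0.36), and KRT6A and KRT7 were higher with BRG1 by 3.49 ± 0.40 and 4.59 ± 0.50. KRT86 had 2 reads with the mutant, a ratio of 34.1 (9.09 to 287). Without BRG1-K785R Empty replicate 1 or 2, KRT6A was 2.81 or 4.50, and without replicate 1 KRT13 was 4.48 and KRT7 was 5.69. KRT19, which passed the filter only through the mutant's Empty libraries, was the keratin lower with BRG1, with 6 reads against 26 (-2.35 ± 0.69, adjusted p = 0.0035, and 0.065 with DESeq2).

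Mesenchymal genes rose with BRG1 as well. Of 14 tested 11 rose and 0 fell against GFP, where 32.2% of all genes were higher and 30.2% lower, and their summed level (15 genes, with TGFBI at 0 in both GFP libraries and S100A6 at 0 in one) was 2679 and 2715 CPM against 1219 and 1238. SPARC had a mean of 115 CPM against 0.764, and VIM, the intermediate filament protein of mesenchymal cells, 168 against 62.2. Their part in the keratin result was not tested. GRHL2 and ESRP1, regulators of epithelial genes, were near 0 in every SW13 group.

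ERG in SW13 with GFP gave no called change in the simple pair. KRT8 was at 0.854 and 0.71 CPM with GFP and ERG (-0.25 ± 0.34, adjusted p = 0.64) and KRT18 was at 1.55 and 1.59 CPM (-0.21 ± 0.28, adjusted p = 0.62). KRT10 fell 1.82-fold, from 63.6 and 56.7 CPM to 35.7 and 32.8 (-0.86 ± 0.09, adjusted p = 1.3e-08). It was the 1 keratin called, where 26.0% of all genes were (12.6% higher, 13.5% lower). Another 14 of the 17 tested had at most 4 reads over both libraries of either group, so no fold is given. TMEM99 lies on the opposite strand, and its span shares 3490 bases with that of KRT10 in GENCODE (GRCh38), of which 56 are exon bases of both genes in the whole annotation and 0 in its basic set. It read 13.7 and 12.7 CPM with the empty vector and 7.73 and 7.89 CPM with ERG. Whether reads of 1 gene entered the count of the other was not tested.

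Beside BRG1, ERG raised KRT8 and KRT18, while KRT75, KRT4, KRT13 and other stratified and hair keratins fell. KRT8 went from 19.4 and 20.4 CPM to 60.6 and 45.7, a 2.75-fold rise (1.46 ± 0.11, adjusted p = 2.2e-12). KRT18 went from 33.6 and 32.6 CPM to 110.2 and 76.1, a 2.90-fold rise (1.54 ± 0.11, adjusted p = 2.3e-13). KRT75 went the other way, from 27.1 and 23.5 CPM to 2.40 and 1.62, a 12.2-fold fall (-3.61 ± 0.18, adjusted p = 2.7e-16). The groups did not overlap in these genes. KRT4 fell from 8.99 and 7.72 CPM to 0.240 and 0.118 (-5.46 ± 0.35), and KRT13 fell from 4.85 and 4.78 CPM to 0.120 and 0.118 (-5.23 ± 0.43). KRT6A fell to 0.320 and 0.118 CPM (-4.15 ± 0.42, and -5.00 without BRG1 ERG replicate 1) and KRT7 fell to 0.2 and 0.236 CPM (-3.70 ± 0.42). KRT6C had 2 reads against 65, a ratio of 31.8 (8.46 to 268). KRT4, KRT13, KRT6A, KRT7 and KRT6C passed the filter on low counts only through BRG1 Empty. For these genes a fall from that group was largely set by the filter.

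Smaller falls were seen in KRT80, from 27.6 and 25.5 CPM to 9.43 and 8.94 (-1.48 ± 0.14), KRT81, from 6.28 and 5.51 to 2.40 and 1.46 (-1.57 ± 0.25), and KRT15, from 1.58 and 1.13 to 0.4 and 0.788 (-1.14 ± 0.42). KRT17 fell by 2.22 on the log2 scale, with -3.21 and -1.62 when BRG1 ERG replicate 1 or 2 was left out. KRT86 fell from 1.5 and 1.29 CPM to 0.560 and 0.276 (-1.69 ± 0.47, adjusted p = 0.0037), but the call was lost without BRG1 ERG replicate 2 (-1.26, adjusted p = 0.073) and with DESeq2 (adjusted p = 0.39). In all 13 of 17 keratins fell, 2 rose, and KRT10 (-0.10 ± 0.08) and KRT19 were not called. The 13 include the 8 that passed the filter only through BRG1 Empty, so the count is a description. Those that passed without that group and fell were KRT15, KRT17, KRT75, KRT80 and KRT81. The background was 45.4% of genes called (22.6% higher, 22.8% lower). Of 14 mesenchymal genes tested beside them 7 fell and 2 rose, and their summed level was 3589 and 3605 CPM against 2679 and 2715, with SPARC at a mean of 1578.5 CPM. Their part in the keratin result was not tested.

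With the mutant, ERG raised KRT8 to 4.71 and 4.95 CPM (1.26 ± 0.21, adjusted p = 6.1e-06) and KRT18 to 16.4 and 16.0 CPM (1.67 ± 0.16, adjusted p = 1.2e-10), and both pairs of libraries lay above those with the empty vector. KRT80 did not pass the test (0.13 ± 0.30, adjusted p = 0.73), at 1.06 and 1.72 CPM against 0.902 and 1.36. KRT19 was tested only because of its reads in the mutant's Empty libraries. KRT19 had 4 reads against 26 (-2.52 ± 0.77, adjusted p = 0.0058). That call was lost without BRG1-K785R ERG replicate 2 (-1.54, adjusted p = 0.13) and with DESeq2 (adjusted p = 0.072), and the value was -6.84 without BRG1-K785R ERG replicate 1. Of 17 keratins 11 were called lower, 2 higher and 4 not, where 56.2% of all genes were called (25.3% higher, 30.9% lower). All 11 had at most 26 reads in the group with the empty vector, 8 had 0 reads with ERG, and 4 keratins were called when only the 4 libraries compared were fitted. Without BRG1-K785R ERG replicate 2 there were 8 calls in place of 13.

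Whether the effect of ERG differed between BRG1 and GFP or the mutant was tested as a difference of log2 changes. Against GFP the ERG effect beside BRG1 was higher by 1.71 ± 0.37 in KRT8 (adjusted p = 0.00043), by 1.75 ± 0.30 in KRT18 (adjusted p = 2.9e-05) and by 0.76 ± 0.12 in KRT10 (adjusted p = 1.1e-05). These were the 3 keratins called of 17, with 37.8% of genes called (19.1% higher, 18.7% lower), and the falls of the other keratins could not be set against GFP, where they were at or near 0. Against the mutant, KRT80 (-1.62 ± 0.33, adjusted p = 0.00019) and KRT4 (-3.43 ± 1.34, adjusted p = 0.035) were lower and 15 were not called, with 46.2% of genes called (25.8% higher, 20.4% lower). KRT4 passed the filter on low counts only through BRG1 Empty. The KRT4 difference rested on 3 reads with the mutant and ERG, and without BRG1-K785R ERG replicate 2, which held all 3, it was 0.49 (adjusted p = 0.72). It was also lost without BRG1-K785R Empty replicate 2, BRG1 Empty replicate 1 or BRG1 ERG replicate 2 (adjusted p = 0.054, 0.055 and 0.068). KRT8 (0.20 ± 0.25, adjusted p = 0.53) and KRT18 (-0.14 ± 0.19, adjusted p = 0.60) were not called, and KRT18 was -0.42 (adjusted p = 0.044) without BRG1 ERG replicate 1. Whether the ERG effect with the mutant differed from that with GFP was not tested.

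**Figure D4:**
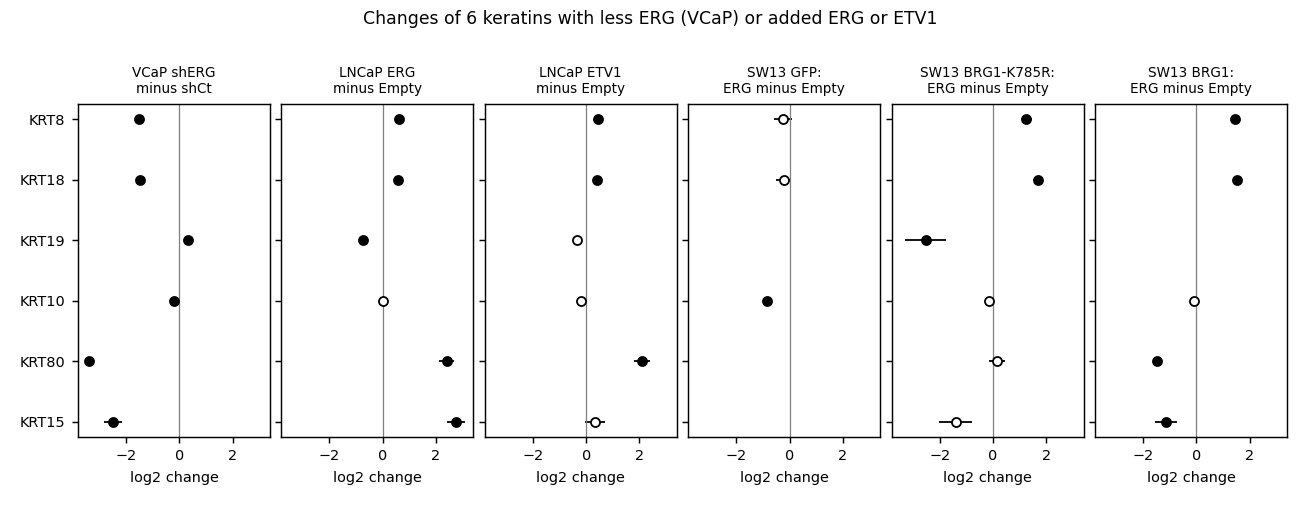
Log2 change ± SE of KRT8, KRT18, KRT19, KRT10, KRT80 and KRT15 (rows) with shERG in VCaP, with ERG or ETV1 in LNCaP and with ERG in SW13 beside GFP, BRG1-K785R or BRG1 (panels). Filled points were called and open points were not, and genes at or under 3 reads are left out. KRT8 and KRT18 lie left of 0 with shERG and right of 0 with ERG in LNCaP and in SW13 with BRG1 or the mutant.

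Some keratins moved in opposite directions with ERG in LNCaP and in SW13 with BRG1. KRT75, KRT80 and KRT15 rose with ERG in LNCaP and fell with ERG in SW13 beside BRG1, while KRT8 and KRT18 rose in both. A contrast of the 2 ERG effects over all 24 libraries, chosen after these values were seen, gave -3.89 ± 0.27 for KRT80 (adjusted p = 3.6e-11), -3.88 ± 0.56 for KRT15 (adjusted p = 7.7e-06), 0.95 ± 0.13 for KRT18 and 0.86 ± 0.12 for KRT8. Its fitted value for KRT75, -11.56, depends on the 3 reads in LNCaP Empty and is no measure of size. In that contrast 33.9% of 18999 genes were called (17.0% higher, 17.0% lower), and 2 of 24 keratins were higher, 11 lower and 11 not called. Among the 11 lower, KRT4 had 3 reads in LNCaP with ERG and 2 with the empty vector, KRT13 had 8 and 4 and KRT17 8 and 2. KRT4, KRT5, KRT6A, KRT6B, KRT6C and KRT13 passed the filter in the fit of SW13 only through BRG1 Empty, where they were high. The count is therefore a description. Vector, drugs, days of selection and ERG level differ between the lines and cannot be told apart.

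The ratio of type I to type II keratin RNA compares the 2 keratin types at the RNA level only, and no protein was measured. Summed per length over all members, it was 1.03 and 1.02 in VCaP shCt, 2.15 and 1.95 in shERG and 0.890 and 0.833 in shARID1A. In LNCaP it was 1.11 and 1.06 with the empty vector, 0.953 and 0.99 with ERG and 0.983 and 0.986 with ETV1, so every prostate group but shERG lay between 0.833 and 1.11. In SW13 it was 69.2 and 62.8 with GFP, 43.5 and 48.9 with GFP and ERG, 11.5 and 10.0 with the mutant, 11.5 and 9.47 with the mutant and ERG, 1.31 and 1.36 with BRG1 and 3.02 and 2.98 with BRG1 and ERG. KRT10, a type I keratin whose own partner KRT1 stayed under 1 CPM in every group, held 93.4 to 94.8% of all keratin RPKM in SW13 with GFP. KRT18 over KRT8 stood at 0.602 and 0.615 in VCaP shCt, 0.617 and 0.607 with shERG, 0.464 and 0.441 with shARID1A, 0.865 to 0.925 over the 6 LNCaP libraries and 2.35 to 5.14 over the 12 SW13 libraries. In VCaP the pair had nearly the same ratio with shCt and with shERG. These ratios are a description, with no test.

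**Figure D5:**
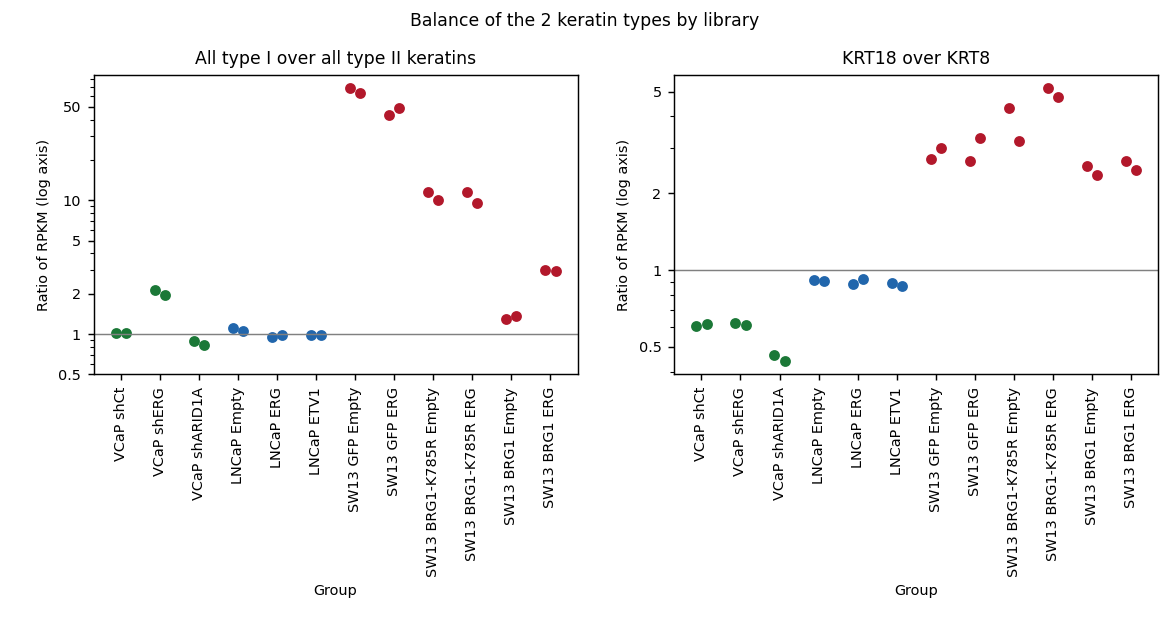
Ratio of summed type I to summed type II keratin RPKM (left) and of KRT18 to KRT8 RPKM (right) in each library (points, log axis, line at 1) for the 12 groups. The left ratio lies near 1 in VCaP shCt and LNCaP, is higher in VCaP shERG and drops from 62.8 to 69.2 in SW13 with GFP to 1.31 to 1.36 with BRG1.

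Summed over all members, keratin RPKM was 801 and 783 in VCaP shCt, 490.1 and 459 in shERG and 1102 and 1202 in shARID1A, and in LNCaP 353 and 350.3 with the empty vector, 505 and 521 with ERG and 459 and 434 with ETV1. In SW13 it was 31.4 and 28.3 with GFP, 96.3 and 91.7 with BRG1 and 130.4 and 97.6 with BRG1 and ERG. With BRG1 alone, KRT8, KRT18 and KRT19 made up 31.7 and 33.0% of that sum, KRT10 27.8 and 28.8%, KRT75 13.3 and 12% and KRT80 7.35 and 7.13%. With ERG added the share of KRT8, KRT18 and KRT19 was 75.6 and 71.5%, and that of KRT10 19.3 and 23.3%.

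The rest of the family was close to silent. Of the members outside the 20, KRT82 had no read in any library, and the highest value in any single library was 0.903 CPM for KRT5, 0.882 for KRT36, 0.778 for KRT72 and 0.765 for KRT73. None of the 11 type I hair keratins and none of the 4 type I inner root sheath keratins reached a group mean of 1 CPM, against 2 of 6 type II hair keratins, 6 of 13 type II and 6 of 10 type I stratified keratins and all 5 simple keratins. Between 15 and 17 members passed the filter on low counts within a line and could be tested. Of those that did not, KRT74 had 0 reads in LNCaP Empty and 22 with ERG, at least 4.59-fold higher, KRT222 had 16 reads in LNCaP Empty and 0 with ERG, at least 2.20-fold lower, and KRT23 had 21 reads with shARID1A and 0 with shERG, at least 3.85-fold higher. KRT83 had 0 reads in SW13 with GFP and 25 with BRG1, at least 3.84-fold higher.

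Genes that work with keratins were read from lists of their own. Of 12 linkers that tie keratins to desmosomes and other filaments, 8 fell and 1 rose with shERG (all genes 37.4% lower and 29.3% higher), among them JUP (plakoglobin), from 278 and 288 CPM to 145 and 139 (-1.18 ± 0.05), and PPL (periplakin) (-1.15 ± 0.08). With ERG in LNCaP 4 of 12 rose and 2 fell (all genes 15.4% and 14.3%), with JUP at 0.62 ± 0.06. In SW13 5 of 9 tested rose and 1 fell with BRG1 (all genes 32.2% and 30.2%), led by PPL (2.19 ± 0.12) and DSP, desmoplakin, at 0.178 and 0.235 CPM with GFP and 8.95 and 9.97 with BRG1 (5.34 ± 0.31). ERG beside BRG1 then left 7 of 9 lower and 1 higher (all genes 22.8% and 22.6%), with DSP at 2.64 and 3.47 CPM (-1.58 ± 0.19) and PPL at 13.9 in both libraries (-1.33 ± 0.11).

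Of 18 regulators of epithelial genes tested in VCaP, 10 fell and 3 rose with shERG, so that 13 of 18 were called where 66.7% of all genes were, among them KLF4 (-1.68 ± 0.06), ESRP1 (-1.25 ± 0.05), ELF3 (-1.08 ± 0.05) and GRHL2 (-0.71 ± 0.04). With shARID1A 8 rose and 5 fell, where 66.1% of all genes were called, with KLF4 at 1.37 ± 0.05 and ELF3 at 1.16 ± 0.05. In LNCaP 5 of 17 fell with ERG and 3 rose (29.7% of all genes called). The median log2 change of the 17 was -0.15. In SW13 7 of 13 rose and 1 fell with BRG1 (62.4% of all genes called), with TFAP2C at 4.35 ± 0.30. When ERG was added 6 fell and 1 rose (45.4% of all genes called), with TFAP2C at -1.40 ± 0.21 and KLF5 at -0.92 ± 0.09. Cornified envelope genes, which build the outer shell of epidermal cells, were few. Of 7 tested in LNCaP 3 rose and 1 fell with ERG (29.7% of all genes called), with S100A9 at a mean of 16.9 CPM against 1.21 (3.81 ± 0.14). Of 4 tested in SW13 3 rose and 0 fell with BRG1 (62.4% of all genes called). Among the same 4, 3 fell and 1 rose when ERG was added (45.4% of all genes called).

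Other intermediate filament genes were counted in the same way. With shERG 7 of 12 fell and 1 rose, where 66.7% of all genes were called, led by the lamin LMNB1 (-1.12 ± 0.06). In LNCaP 8 of 11 rose and 2 fell with ERG (29.7% of all genes called), with VIM at a mean of 119 CPM against 73.4 (0.70 ± 0.11). In SW13 7 of 13 rose and 2 fell with BRG1 (62.4% of all genes called), among them SYNM (1.82 ± 0.08), VIM (1.30 ± 0.08) and NES (2.20 ± 0.16), and 5 fell and 2 rose when ERG was added (45.4% of all genes called). Mesenchymal genes in LNCaP went mostly the other way from KRT8 and KRT18: 10 of 15 fell and 2 rose with ERG and the same counts were found with ETV1, where 14.3% and 12.9% of all genes were lower. Their summed level was 954 and 965 CPM with the empty vector and 1954 and 2061 with ERG, of which FN1 alone had a mean of 1820 CPM there against 696. Their part in the keratin result was not tested.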

How the data were processed

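Gene expression was measured by single-end RNA sequencing (75 bases) of 24 libraries, per the labels' protocols. Each library's table, as the authors deposited it, lists every gene with its length, whole-number counts of reads and RPKM. These counts were used unchanged, per the files' values. The deposited RPKM values equal the counts divided by gene length and library total within a relative deviation of 5e-06, and they served only to compare genes within a library. STAR 2.3.1 and hg19 are named per the submitters' processing notes, and no source used here gives the counting program, annotation or strand setting. No gene positions of that build were used. Sequences and positions come from RefSeq and GENCODE tables of GRCh38.p14, with 21 keratins lacking a promoter entry. Titles name the SW13 control GFP, and a protocol text names luciferase for the same construct.

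The tests ran in edgeR 4.0.16 with limma 3.58.1 under R 4.3.3. Python 3.11.15 with numpy 2.4.6, pandas 2.3.3 and scipy 1.17.1 built the tables, and matplotlib 3.10.9 drew the figures. Each line was fitted with all its groups (TMM scaling, filterByExpr by group), and the 3 control groups were fitted together. This left 16791 (VCaP), 16993 (LNCaP), 17018 (SW13) and 17718 (controls) genes, with common biological coefficients of variation of 0.0394, 0.0608, 0.0571 and 0.0491 and 3, 3, 6 and 3 residual degrees of freedom. The 14 comparisons of groups and 2 differences of ERG effects used the quasi-likelihood F test, with Benjamini-Hochberg adjustment and a threshold of 0.05, and SE is the change divided by the root of F. The fits were also run on simulated counts drawn from their own means and dispersions, which cannot check those model assumptions. Libraries of a group differed beyond counting error (chi-square per degree of freedom 2.27 to 13.1), and with 2 per group the p values rest on a spread shared across genes.

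The keratins, lists and rules were chosen with earlier results of these data known. Named keratins were KRT8, KRT18 and KRT19 in each comparison, and up to 8 others by size of change among those called with no overlap in CPM and a higher mean of at least 1 CPM; a few further members are given to complete a role. Folds are given only above 3 reads in each group; a group at 0 was set to a floor of 3 counts per library, and 1 to 3 reads gave a ratio with its 95% interval. Both cover counting error only. Named genes of other lists were up to 4 called members by smallest adjusted p, with at least 5 CPM. Alternatives were RLE scaling, library totals, no filter, DESeq2 1.42.0, only the compared groups, a block for replicate number, each library left out once and, added after the values were seen, a fit of SW13 that omits the 2 BRG1-K785R Empty libraries. There were 0 sample columns of other origin.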

Additional observations from a re-analysis of the deposited data

Results flagged for a closer look

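The effect of ERG on 5 keratins was called different between SW13 groups by a test of the difference itself. With BRG1 rather than GFP it was higher by 1.71 ± 0.37 (log2) in KRT8, 1.75 ± 0.30 in KRT18 and 0.76 ± 0.12 in KRT10, with adjusted p of 0.00043, 2.9e-05 and 1.1e-05 (edgeR). KRT8 and KRT18 were higher with ERG in 2 of 2 libraries beside BRG1 and lower in 2 of 2 beside GFP, though at most 1.84 CPM there. KRT10 was lower with ERG in 2 of 2 libraries beside GFP (35.7 and 32.8 against 63.6 and 56.7 CPM) and in 2 of 2 beside BRG1 (54 and 48.6 against 57.4 and 56.5 CPM). With BRG1 rather than BRG1-K785R the ERG effect was lower by 1.62 on the log2 scale in KRT80 (-1.62 ± 0.33, adjusted p = 0.00019) and by 3.43 in KRT4 (-3.43 ± 1.34, adjusted p = 0.035), the KRT4 value resting on 3 reads in 1 library. Without that library, BRG1-K785R ERG replicate 2, the KRT4 difference was 0.49. KRT4 passed the filter on low counts only through BRG1 Empty. In both differences a smaller share of keratins than of all genes was called. With GFP, however, 14 of the 17 keratins tested were at or near 0 reads, so a difference in them could hardly be called.

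Between SW13 with BRG1 and LNCaP the ERG effect differed in the contrast chosen after seeing the data. It was -3.89 ± 0.27 in KRT80, -3.88 ± 0.56 in KRT15 and -11.56 in KRT75, the last a fitted value that hangs on 3 reads in LNCaP Empty. In all 3 genes both ERG libraries were above both controls in LNCaP and below both in SW13. The differences in KRT8 (0.86 ± 0.12) and KRT18 (0.95 ± 0.13) were between rises of unequal size.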

How the results depend on the processing

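Of 1277 values of 124 named keratin results under the alternatives, 1223 kept their direction and side of the threshold, 37 lost the call, 11 gained one and 6 reversed, and 98 of 111 called results kept both throughout. Counts of keratins called moved by over 1.5 times as follows; the cause was not tested. With only the compared groups fitted, 7 in place of 16 were called for BRG1-K785R against GFP and 4 in place of 13 for ERG with BRG1-K785R. Leaving out each library gave 5 to 8 in place of 9 for ETV1 against Empty, 3 to 4 in place of 6 for ETV1 against ERG, 8 to 11 in place of 13 for ERG with BRG1-K785R and 1 to 3 in place of 2 for the difference of ERG effects between BRG1 and BRG1-K785R. In that difference KRT8 (0.20) was -0.0308 with library totals as the scale and -0.0210 to 0.44 without 1 library, KRT18 (-0.14) was -0.42 to 0.12 and KRT4 (-3.43) was -4.35 to 0.49. KRT19 in the difference between BRG1 and GFP (0.44, not called) was -0.43 to 2.74. Deviations of libraries with the same replicate number correlated between -0.098 and 0.12. Such weak correlations, from 2 libraries per group, cannot exclude a batch shared by number. With the replicate block 3 in place of 6 keratins were called for ETV1 against ERG, and no other count moved by over 1.5 times. A fit of SW13 that omits the 2 BRG1-K785R Empty libraries, chosen after seeing the data, called 16 (BRG1 against GFP), 1 (ERG with GFP), 15 (ERG with BRG1) and 3 (their difference).

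Library totals as the scale moved the median change of all genes to 0.13 for shERG, 0.17 for BRG1 against GFP, 0.22 for BRG1 against BRG1-K785R, 0.17 for ERG with BRG1-K785R, -0.12 for shARID1A against shERG, -0.11 for VCaP shCt against LNCaP Empty, -0.12 for the difference between BRG1 and GFP and -0.18 for that between BRG1 and BRG1-K785R. The share of calls that were higher then went from 43.9 to 60.5% for shERG, 51.6 to 64.1%, 48.9 to 66% and 45.1 to 64.6% for the next 3, 50.4 to 37.1% and 55.8 to 29.9% for the 2 differences, 48.3 to 62% for ERG with GFP, and 50.5 to 40% for ETV1 against Empty. In shERG 9 keratins were then lower in place of 10. Reads set the limit in SW13 without BRG1, where changes of keratins at or near 0 reads were not detectable at this depth. Ratios of type I to type II were lower in 24 of 24 libraries when reads were not divided by length, at 0.669 to 0.923 times the value per length, and in 23 of them by more than 1 SD of the group.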
